A study of Mus musculus with 18 samples.

Results

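Interferon-stimulated genes are the antiviral and signalling genes that rise when a cell senses type I interferon, and 40 of them were followed here through cultured mouse macrophages. They were chosen by gene name, as a list of known interferon targets, with earlier results of these data known. The list covers 40 of the 54532 genes in the deposited count table, and all 40 were among the 14684 genes with enough reads to be tested. The 40 genes lie on 15 chromosomes.

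The RNA came from macrophages grown out of the tibial marrow of mice aged 2 to 3 months, as 18 libraries in 6 groups of 3. All mice carried loxP-flanked Smad1 alleles. The Smad1 fl/fl mice carried these alleles alone, and the Smad1 fl/fl + LyzM-Cre (MyS1KO) mice also carried Cre recombinase expressed from the Lyz2 gene, which is active in myeloid cells. The first are called floxed and the second knockout below, as their labels name them. Non-adherent marrow cells were grown for 48 h in 120 ng/ml of the macrophage growth factor CSF-1, then kept for 16 h without serum. One group of each genotype stayed untreated, one received 10 ng/ml TGF-β1 for 4 h and one received 50 ng/ml BMP4 for 4 h. TGF-β1 and BMP4 are ligands of one cytokine superfamily, and Smad1 is a transcription factor that acts downstream of their receptors, of the BMP receptors above all. Whether a group's 3 libraries stem from different mice or cultures is not stated, so every p-value below measures only the spread between these libraries.

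Type I interferon binds the receptor pair Ifnar1 and Ifnar2, and the kinases Jak1 and Tyk2 then phosphorylate Stat2. With Irf9 it forms part of a complex named ISGF3, which binds interferon-stimulated response elements (ISREs) in the promoters of its targets. Macrophages hold many of these genes at a basal level without infection, through low constitutive interferon signalling.

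The ISRE is the sequence feature through which these genes are known to be switched on together, so the promoters were searched for its core, GAAANNGAAA, on either strand. RefSeq promoters of GRCm38.p6, from 250 bases before to 50 bases after a start site, were at hand for 30 of the 40 genes. The core was present in 16 of those 30 genes (53.3%), against 1079 of all 27025 genes in the table (3.99%); counted as promoters, 17 of the members' 35 held it, against 1131 of 32851 (3.44%). The windows below come from members that stand for the different outcomes described later. Ifit1, Ifi207, Ddx58, Stat2 and Rsad2 were lower after TGF-β1 in both genotypes, Isg15 and Ifit3 were called in the floxed libraries alone, and Oas1a, Eif2ak2 and Ifih1 in neither, in the fit without a replicate block. Each is written 5′ to 3′ on the strand of its gene, with up to 20 bases on each side, and capitals mark the ISRE core or its complement (TTTCNNTTTC).

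Ifit1, chr19:34640765-34640833, plus strand: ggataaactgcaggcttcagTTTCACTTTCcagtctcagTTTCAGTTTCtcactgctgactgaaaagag
Ifi207, chr1:173741821-173741870, minus strand: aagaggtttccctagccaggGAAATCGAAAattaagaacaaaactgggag
Ddx58, chr4:40239794-40239843, minus strand: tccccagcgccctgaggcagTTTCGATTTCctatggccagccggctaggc
Stat2, chr10:128270256-128270305, plus strand: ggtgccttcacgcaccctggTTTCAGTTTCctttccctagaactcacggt
Rsad2, chr12:26456543-26456592, minus strand: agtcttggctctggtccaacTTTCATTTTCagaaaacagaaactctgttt
Isg15, chr4:156200855-156200916, minus strand: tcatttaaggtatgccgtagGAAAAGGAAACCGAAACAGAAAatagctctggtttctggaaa
Ifit3, chr19:34583353-34583436, plus strand: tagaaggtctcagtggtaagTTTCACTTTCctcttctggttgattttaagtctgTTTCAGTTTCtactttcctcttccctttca
Oas1a, chr5:120907510-120907565, minus strand: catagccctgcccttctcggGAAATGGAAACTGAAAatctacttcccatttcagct
Eif2ak2, chr17:78882525-78882574, minus strand: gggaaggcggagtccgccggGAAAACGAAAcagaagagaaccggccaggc
Ifih1, chr2:62646206-62646243, minus strand: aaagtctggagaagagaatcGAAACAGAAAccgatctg

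The core occurs 2 times in the Ifit1 window and, overlapping, 3 times in the Isg15 window. The window of Ifit3b, a close copy of Ifit3 on the same chromosome, has the same letters as that of Ifit3. The core lies before the annotated start in Ifit1, Ifi207, Stat2, Rsad2, Isg15, Ifit3 and Oas1a. By the calls of the fit without a replicate block, the core was present in 6 of 12 genes lower in both genotypes, 4 of 5 called in the floxed libraries alone and 6 of 13 called in neither. Allowing 1 mismatch in the 8 fixed bases raised the count to 28 of 30 members and to 38.9% of all genes.

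A pair of other motifs was searched in the same promoters, again counted as genes. TTCNNNGAA, the site class of Stat dimers downstream of interferon-γ, was present in 6 of 30 members (20%) and in 9.55% of all genes. Of those 6 members, 5 (Isg20, Oas1a, Ifi35, Bst2 and Eif2ak2) were called in neither genotype in the fit without a replicate block. The other was Ifit2. With the block Oas1a was called in knockout. Of all 30 members with promoters, 13 were called in neither genotype in the fit without the block. A link between this motif and the calls was not tested, and 6 genes are few. CAGACA, a Smad-binding sequence, was present in 6 of 30 members (20%) and in 23.55% of all genes. These 6 were Ifit1, Isg20, Irf9, Oasl1, Cmpk2 and Ifi35. A match is a description of letters in these windows and not evidence that a factor binds there.

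Library totals ran from 15153296 to 24639163 reads counted to genes, so that 3 reads, the least count read as present, amounted to 0.122 to 0.198 CPM on the unscaled totals. CPM is a gene's count relative to the total of its library, here after TMM scaling unless said otherwise. Replicate pairs differed by more than sampling noise throughout, with chi-square per degree of freedom from 3.69 to 28.6. The whole-gene Smad1 count was present in every library (30.6 ± 0.534 CPM in untreated floxed and 26.3 ± 0.501 CPM in untreated knockout, mean ± SD, n = 3); reads outside a deleted exon still count, so it does not check the genotype labels, and per the series description the loss of the protein was shown by western blot. Macrophage markers summed to between 10700 and 12987 CPM in the 18 libraries. In knockout the sum was 10925 to 11210 CPM after TGF-β1 and 11897 to 12224 CPM untreated, and in floxed 10700 to 11667 and 11594 to 12987 CPM. Of the 8 markers, Cd14 and Mrc1 fell with TGF-β1, by 1.10 and 0.95 in floxed and by 1.23 and 0.99 in knockout (log2). Mertk rose by 0.47 in floxed and 0.51 in knockout, and the other markers were not called. Markers of lymphoid cells summed to at most 1.76 CPM, of conventional dendritic cells to at most 5.74 CPM and of fibroblasts to at most 10.5 CPM, while those of megakaryocytes and erythroid cells summed to 152 to 263 CPM. Lyz2 separated the libraries by genotype label, and a search of all genes for such a separation was not made. Lyz2, a macrophage lysozyme and the gene that carries the Cre, was at 62.1, 37.6 and 74.3 CPM in the floxed libraries numbered 1 (untreated, TGF-β1, BMP4), against 8118 to 9872 CPM in the other floxed libraries and 13449 to 17786 CPM in the knockout libraries. All 9 libraries labelled floxed thus lay below all 9 labelled knockout. The LyzM-Cre insertion is known to disrupt the Lyz2 allele that holds it, so a lower level would go with that label, and these values go the other way. The cause was not tested, and floxed and knockout stand throughout for the libraries so labelled. Results for the floxed genotype are therefore also given without those 3 libraries.

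As a level per length of transcript (FPKM), the genes were well expressed before any treatment. In untreated floxed libraries the mean ran from 3.94 for Mx2 to 332 for Bst2, with a median over the 40 genes of 32.1. Of the 40, 39 lay above the median of all tested genes and 20 above their 90th percentile. Bst2, the membrane protein tetherin that holds budding virions at the cell surface, stood far above the next, Ifi207 at 91.6 and Ifit3 at 87.1. At the low end Isg20, a nuclease, was at 4.49 and Herc6, the mouse ligase that attaches Isg15, at 5.26.

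TGF-β1 lowered a large share of the list in both genotypes. With edgeR's quasi-likelihood test and Benjamini-Hochberg adjustment over all 14684 genes (adjusted p under 0.05), 24 of the 40 genes fell in the floxed libraries and 19 fell in the knockout libraries, and none rose in either. The background was 16% of all tested genes lower and 17% higher in the floxed libraries, and 17.1% lower and 17.6% higher in the knockout libraries. Because the members were chosen with earlier results of these data known, their share beside this background is a description and not a test. Every one of the 40 fold changes was below 0 in both genotypes. The median log2 change over the members was -0.52 in floxed, from -1.61 to -0.05, and -0.36 in knockout, from -1.41 to -0.01, while the median over all genes was 0.004 and 0.0003. In each genotype 25 members had all 3 TGF-β1 libraries below all 3 untreated libraries (21 of them in both), against 21.3% of all genes in floxed and 22.1% in knockout. For this and the later counts of members in both genotypes, the share of all genes in both was not counted. These are bulk samples, in which fewer cells of a type and less RNA per cell cannot be told apart.

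The 19 genes called lower in knockout were all among the 24 called lower in floxed. The other 5 (Ifit3, Isg15, Oas3, Ifi211 and Xaf1) had knockout changes from -0.45 to -0.18 that missed the threshold. With the library number as a replicate block within genotype, a fit described next, 4 of these 5 also fell in knockout (edgeR adjusted p = 0.000518 for Ifit3, 0.0271 for Isg15, 0.00907 for Oas3 and 0.000163 for Ifi211), and Xaf1 did not pass (adjusted p = 0.0667). Floxed and knockout comparisons share no libraries, and over the 40 genes their log2 changes had a Pearson r of 0.97, a correlation across genes that are not independent replicates. The fall was nominally larger in floxed for 33 of the 40. The median difference in log2 change, knockout minus floxed, was 0.08 over the members and -0.005 over all genes. The members vary together between libraries, so these are not 33 separate observations. The difference between genotypes in the response to TGF-β1 was tested directly, and 0 of the 40 passed in edgeR, 0 had an unadjusted p under 0.05 and 0 passed in DESeq2; 0.00681% of all genes passed. The widest gap was that of Isg15, 0.33 ± 0.30 (log2, ± SE).

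The floxed count was smaller without the libraries with little Lyz2, which also leaves fewer libraries in each floxed group. The share of all genes called lower in floxed went from 16% to 12.9%. Whether low Lyz2 or the smaller groups lowered the count was not tested. Without the 3 floxed libraries numbered 1, 13 of the 40 fell in floxed (Oas2, Mx1, Mx2, Rsad2, Stat2, Cmpk2, Ifi204, Ifi207, Ifi209, Ddx58, Parp14, Rtp4 and Samd9l), against 12.9% of all genes lower in that fit. All 40 changes stayed below 0 there, with a median of -0.49. Leaving out single libraries moved the floxed count between 17 and 29 and the knockout count between 11, without TGF-β1 library 2, and 21. In the other direction, libraries of one genotype that share a number deviated together, and with the number as a replicate block within genotype 29 of the 40 fell in floxed (19.5% of all genes) and 29 in knockout (20.1% of all genes), 28 of them in both. The block added Irf7, Oasl2, Parp9, Trim30a and Slfn5 to the calls in both genotypes, and Ifit3, Isg15, Oas3, Ifi211 and Oas1a (edgeR adjusted p = 0.0484) in knockout. Calls in both genotypes held under every alternative tried for 11 genes, Oas2, Mx1, Rsad2, Stat2, Cmpk2, Ifi204, Ifi207, Ifi209, Ddx58, Parp14 and Samd9l. For the 28 and the 11 genes the matching share of all genes was not counted.

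**Figure D1:**
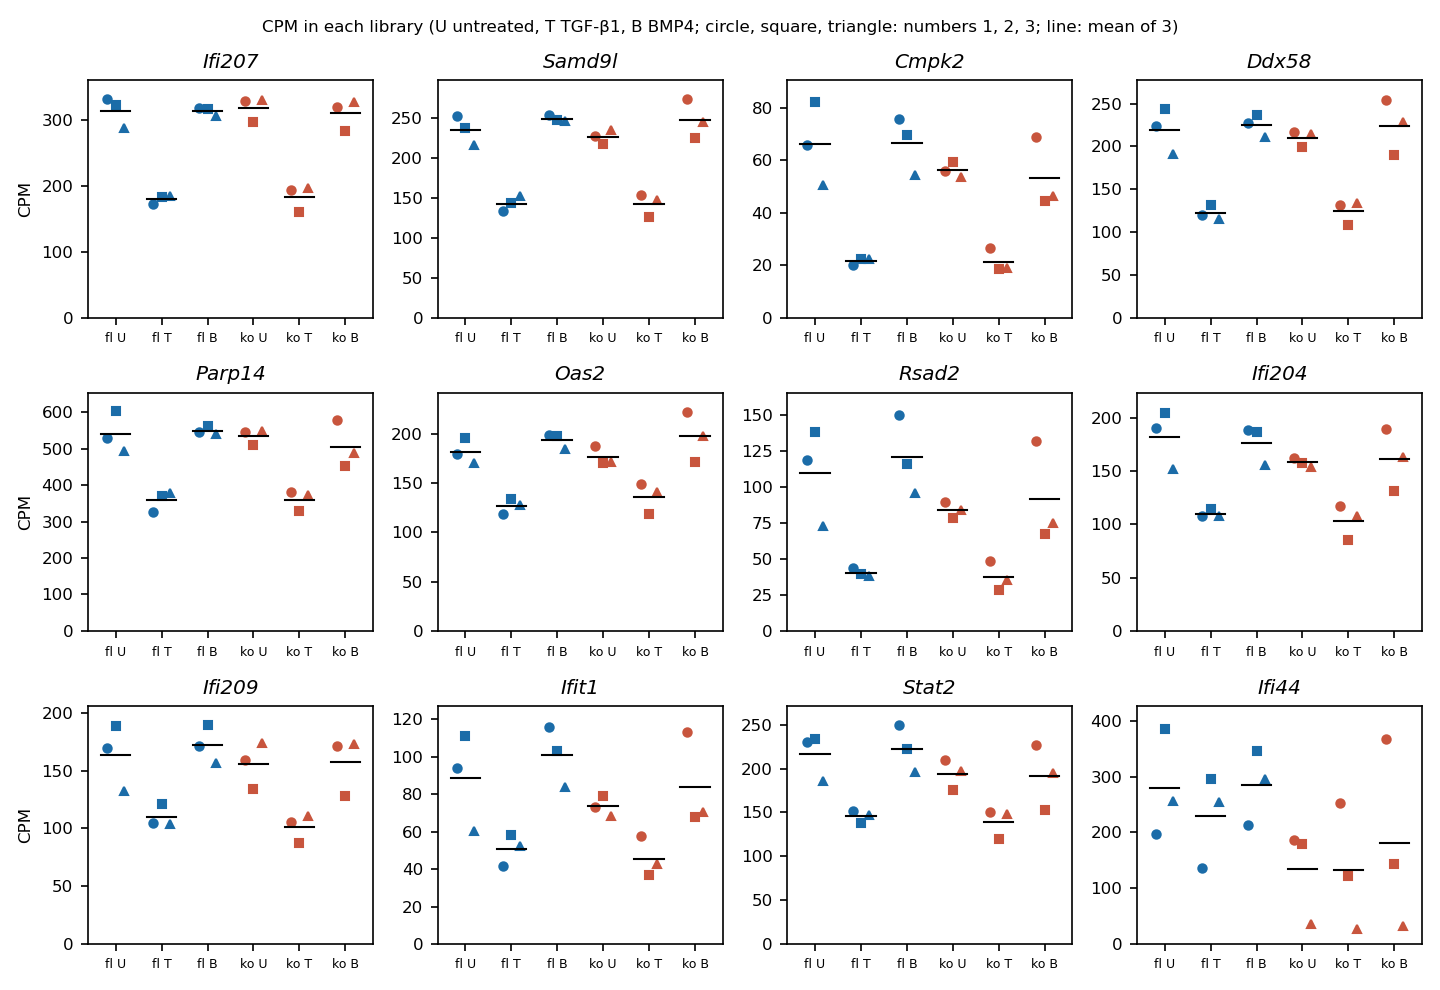
CPM of 12 members in each of the 18 libraries, by group (fl floxed in blue, ko knockout in red; U untreated, T TGF-β1, B BMP4), with the group mean as a line and the library number as the marker shape. In all panels but that of Ifi44 the TGF-β1 libraries sit below the untreated and BMP4 libraries of the same genotype, while Ifi44 is split by the knockout libraries numbered 3.

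As a set, the Mx GTPases, viperin and the neighbour of viperin had the lowest median log2 change among the sets of members described here. It was -1.34 in floxed and -1.10 in knockout, with 4 of 4 lower in each genotype. Cmpk2, a mitochondrial nucleotide kinase next to Rsad2 on chromosome 12, stood at 65.8, 82.3 and 50.5 CPM in the untreated floxed libraries and at 20.3, 22.5 and 22.3 CPM after TGF-β1. In the knockout libraries it stood at 56.0, 59.4 and 53.5 CPM untreated and at 26.5, 18.6 and 19.0 CPM after TGF-β1. The highest treated library was below the lowest untreated one in both genotypes. The log2 change was -1.61 ± 0.18 (SE) in floxed (edgeR adjusted p = 7.08e-07) and -1.41 ± 0.19 in knockout (adjusted p = 6e-06), 3.05-fold and 2.66-fold lower.

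Rsad2 encodes viperin, a radical enzyme that makes a chain-terminating nucleotide. It went from 119, 138 and 73.3 CPM to 43.6, 39.9 and 38.2 CPM in floxed, and from 89.4, 78.9 and 83.8 CPM to 48.4, 28.3 and 35.3 CPM in knockout. The untreated floxed libraries were widely spread, yet no treated library reached them. The log2 change was -1.45 ± 0.24 in floxed (edgeR adjusted p = 1e-04) and -1.18 ± 0.25 in knockout (adjusted p = 0.00102). Mx1, a dynamin-like GTPase that blocks influenza virus in the mouse nucleus, went from 75.4, 102 and 61.3 CPM to 32.9, 35.7 and 33.4 CPM in floxed and from 72.8, 59.0 and 62.6 CPM to 41.0, 23.8 and 31.3 CPM in knockout. Its log2 change was -1.22 in floxed and -1.02 in knockout (edgeR adjusted p = 0.000232 and 0.00168). These 3 genes were the only members at least 2-fold lower in either genotype. Mx2, listed in the annotation as a polymorphic pseudogene, stood lower at 6.68 to 8.50 CPM after TGF-β1 against 11.7 to 17.3 CPM untreated in floxed, and fell by 0.89 and 0.76 on the log2 scale in floxed and knockout.

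The IFIT proteins, which bind viral RNA ends that lack host methylation, fell in 4 of 4 cases in floxed and 3 of 4 in knockout. Ifit1 stood at 93.9, 111 and 60.6 CPM untreated and at 41.7, 58.5 and 52.4 CPM after TGF-β1 in floxed, with little room between the nearest libraries of the groups. In knockout it stood at 73.1, 79.1 and 68.5 CPM untreated and at 57.5, 36.8 and 42.7 CPM after TGF-β1, again without overlap. Its log2 change was -0.80 ± 0.21 in floxed and -0.70 ± 0.22 in knockout (edgeR adjusted p = 0.0063 and 0.0184). Ifit2 fell by 0.98 and 0.77. Ifit3 fell by 0.68 in floxed (edgeR adjusted p = 0.00785), and its knockout change of -0.45 missed the threshold (adjusted p = 0.0769, and 0.000518 with the replicate block). Ifit3b fell by 0.92 and 0.76; it is a near copy of Ifit3, and reads could have been split between them in counting.

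The Ifi200 family, whose proteins sense DNA or regulate transcription in the nucleus, fell in 4 of 4 cases in floxed and 3 of 4 in knockout. Ifi207 stood at 332, 324 and 289 CPM in untreated floxed libraries and at 173, 184 and 185 CPM after TGF-β1. In knockout it stood at 329, 297 and 332 CPM untreated and at 194, 162 and 197 CPM after TGF-β1. The treated libraries lay close together and far below the untreated ones in both genotypes. The log2 change was -0.80 ± 0.08 in floxed and -0.79 ± 0.08 in knockout (edgeR adjusted p = 5.31e-08 and 7.15e-08), the smallest adjusted p of any member in each genotype. Ifi204, the mouse counterpart of a human cytosolic DNA sensor, went from 190, 204 and 152 CPM to 108, 114 and 108 CPM in floxed and from 162, 158 and 154 CPM to 117, 85.1 and 108 CPM in knockout. Ifi209 fell by 0.57 and 0.62 in floxed and knockout. Ifi211 fell by 0.63 in floxed, and its knockout value was -0.43 (edgeR adjusted p = 0.068, and 0.000163 with the replicate block); it overlaps Mndal on the same strand, so some of its reads are uncertain. Family members also resemble each other in sequence.

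Of 5 genes for sensors of foreign nucleic acid, the kinase PKR among them, the same 2 fell in each genotype. Ddx58, which encodes the RNA sensor RIG-I, had its 3 treated floxed libraries between 115 and 132 CPM and its untreated ones between 191 and 244 CPM. Its log2 change was -0.84 ± 0.10 in floxed and -0.75 ± 0.10 in knockout (edgeR adjusted p = 1.94e-06 and 8.39e-06). Dhx58, which encodes the RIG-I relative LGP2, fell by 0.51 and 0.45. Ifih1, which encodes the third sensor of that family, MDA5, stood at 115, 132 and 98.7 CPM untreated and at 96.6, 112 and 105.5 CPM after TGF-β1 in floxed, with overlap, and its changes of -0.14 and -0.07 were not called (edgeR adjusted p = 0.339 and 0.644). Zbp1, a sensor of Z-form nucleic acid that can start cell death, had values of -0.21 and -0.13. Eif2ak2, the gene of PKR, had values of -0.11 and -0.14 with a standard error of 0.07 in each. No test set the change of Ddx58 against that of Ifih1.

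Of the 3 transcription factors on the list, Stat2 alone fell in either genotype. It stood at 231, 234 and 186 CPM untreated and at 152, 138 and 147 CPM after TGF-β1 in floxed, and at 210, 176 and 197 CPM untreated and 151, 120 and 148 CPM after TGF-β1 in knockout. The groups did not overlap in either genotype, and the log2 change was -0.58 ± 0.13 in floxed and -0.48 ± 0.13 in knockout (edgeR adjusted p = 0.00122 and 0.0057). Irf7, which amplifies the production of interferon α, had values of -0.41 and -0.25 (edgeR adjusted p = 0.0792 and 0.297) and was among the genes that the block added in both genotypes. It overlaps Phrf1 on the other strand, and the sources used here do not give whether counting used strand. Irf9, the DNA-binding partner of Stat2, had values of -0.08 ± 0.07 and -0.03 ± 0.07.

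The oligoadenylate synthetases make the signal that turns on RNase L, and 3 of the 5 genes of this family fell in floxed and 2 in knockout. Oas2 went from 180, 196 and 170 CPM to 118, 134 and 128 CPM in floxed and from 188, 171 and 171 CPM to 149, 119 and 141 CPM in knockout. Its log2 change was -0.52 ± 0.09 and -0.37 ± 0.09 (edgeR adjusted p = 9.15e-05 and 0.00243). Oasl1, described in mice as a translational inhibitor of Irf7, fell by 0.65 and 0.53. Oas3 fell by 0.35 in floxed and had a value of -0.20 in knockout (edgeR adjusted p = 0.19, and 0.00907 with the replicate block). Oas1a, a member of a large local gene family, had values of -0.11 and -0.17, and Oasl2 of -0.28 and -0.27, none called without the replicate block.

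Of the Isg15 system and its ubiquitin ligases, Herc6 fell in both genotypes (by 0.32 and 0.33) and Isg15 in floxed. Isg15 encodes a ubiquitin-like protein that is attached to others, and it stood at 52.6, 62.8 and 39.2 CPM untreated and at 29.7, 38.4 and 30.3 CPM after TGF-β1 in floxed. The floxed groups were only narrowly separate, with a log2 change of -0.65 ± 0.20 (edgeR adjusted p = 0.0187). In knockout it stood at 36.7, 36.1 and 32.4 CPM untreated and at 33.6, 22.0 and 29.1 CPM after TGF-β1. Those groups overlapped, with a value of -0.32 ± 0.22 (edgeR adjusted p = 0.287, and 0.0271 with the replicate block). Usp18, which removes Isg15 and restrains the interferon receptor, had values of -0.19 and -0.16, and the ligase genes Trim30a and Dtx3l had values of -0.24 and -0.16 and of -0.05 and -0.07. Dtx3l and its partner Parp9 overlap on opposite strands.

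Among the remaining genes Parp14, Samd9l and Rtp4 fell in both genotypes. Samd9l, which inhibits translation of viral and cellular RNA, went from 252, 237 and 216 CPM to 133, 144 and 152 CPM in floxed and from 227, 217 and 235 CPM to 154, 126 and 147 CPM in knockout, with log2 changes of -0.72 ± 0.08 and -0.67 ± 0.08 (edgeR adjusted p = 4.46e-07 and 1.16e-06). Parp14, an ADP-ribosyltransferase, went from 529, 602 and 492 CPM to 328, 371 and 377 CPM in floxed and from 545, 509 and 549 CPM to 380.1, 329 and 372 CPM in knockout. Its log2 change was -0.59 and -0.57 (edgeR adjusted p = 1.61e-05 and 2.8e-05). Both genes had separate groups in both genotypes. Rtp4 fell by 0.63 and 0.51; it overlaps Masp1 on the other strand. Xaf1, a promoter of cell death, fell by 0.40 in floxed and had a value of -0.18 in knockout. Without the replicate block Parp9, Isg20, Slfn5, Bst2, Ifi35 and Ifi44 were called in neither genotype, with values from -0.35 to -0.01 between them. With the block Parp9 (edgeR adjusted p = 0.00289 in floxed and 0.0119 in knockout) and Slfn5 (0.006 and 0.00326) fell in both.

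**Figure D2:**
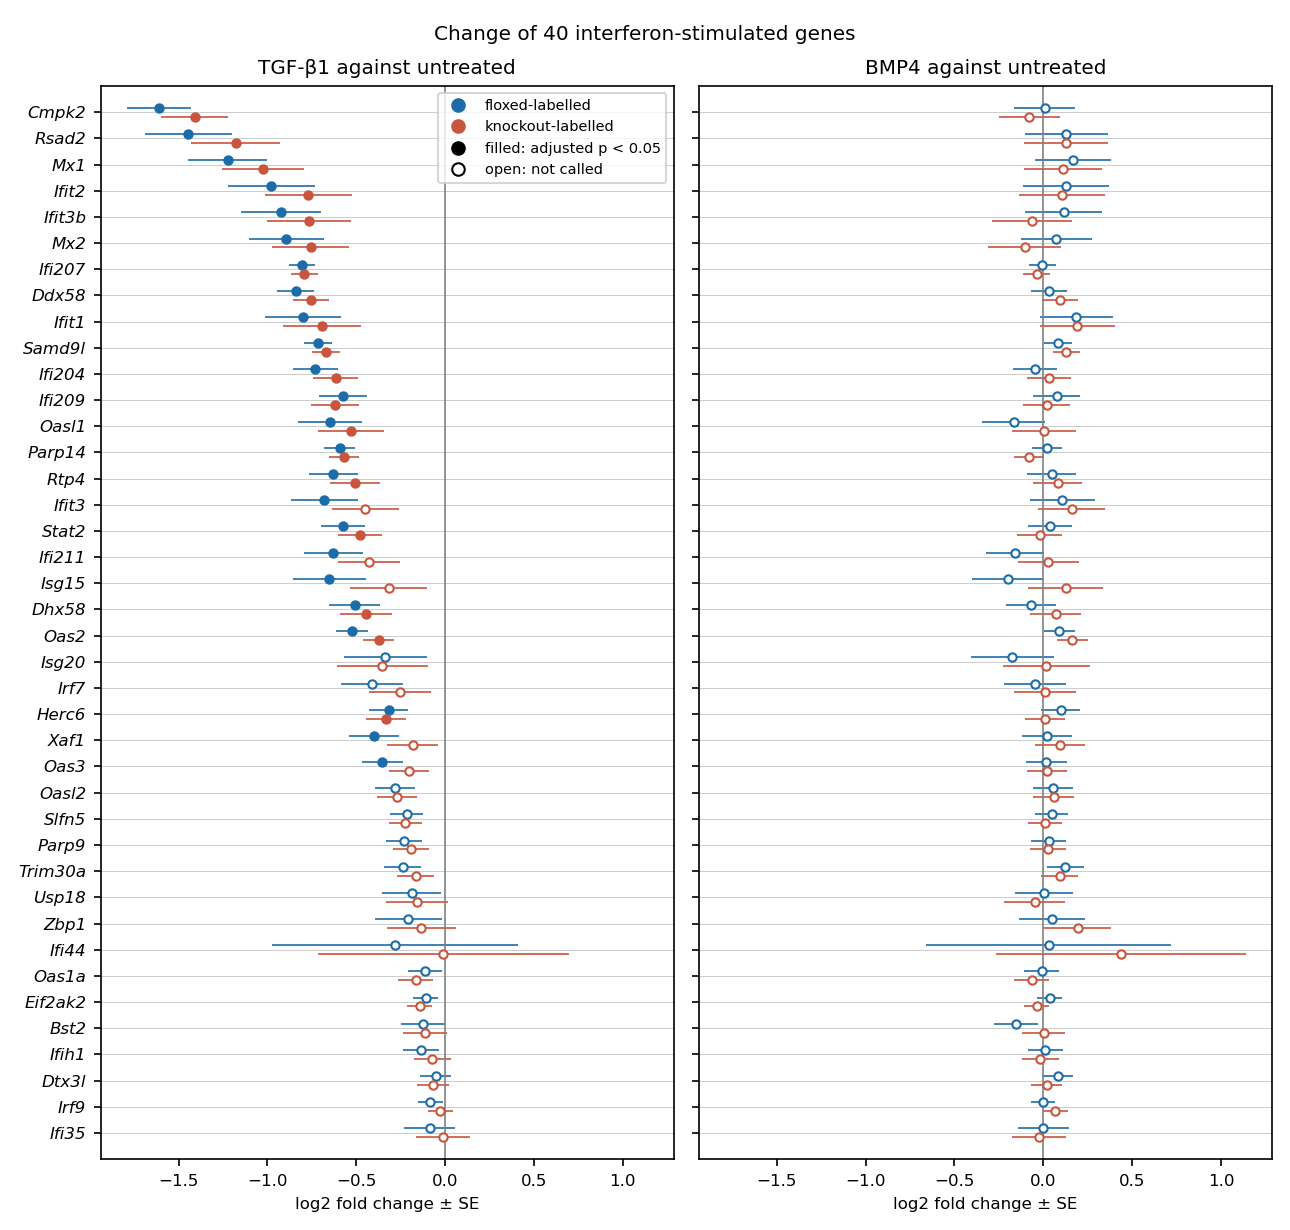
Log2 fold change ± SE of each of the 40 genes after TGF-β1 (left) and BMP4 (right) against untreated libraries, in floxed (blue) and knockout (red), 3 libraries per group; filled points passed edgeR's adjusted p of 0.05. With TGF-β1 all points lie below 0, with 24 filled in floxed and 19 in knockout, and with BMP4 none is filled.

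BMP4 moved none of the 40 genes past the threshold. In edgeR 0 of 40 passed in floxed and 0 in knockout, 0 had an unadjusted p under 0.05 in either, and DESeq2 called 0; of all genes, 0% passed in floxed and 0.572% in knockout. Log2 values ran from -0.20 for Isg15 to 0.19 for Ifit1 in floxed and from -0.10 for Mx2 to 0.44 for Ifi44 in knockout, with medians of 0.03 and 0.02. The median standard error was 0.13 in floxed and 0.14 in knockout, which limits how small a change these libraries could show. Cmpk2 after BMP4 stood at 75.9, 69.6 and 54.5 CPM in floxed, inside its untreated range, and at 69.0, 44.5 and 46.4 CPM in knockout, on both sides of that range. Rsad2 stood at 150.1, 116 and 96.0 CPM and at 132, 67.6 and 75.3 CPM. Ifi207 stood at 319, 317 and 306 CPM and at 321, 283 and 329 CPM, inside its untreated range but for 1 knockout library. The difference between genotypes in the response to BMP4 was called in 0 of 40, with 0 at an unadjusted p under 0.05 and 0 in DESeq2, and in 0% of all genes.

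Levels in the libraries labelled knockout and floxed were also compared under the same treatment, and the direction given to each difference rests on labels that the Lyz2 level goes against. In edgeR 0 of 40 passed in untreated libraries, after TGF-β1 or after BMP4, where 2.39%, 0.388% and 0.0272% of all genes did, and DESeq2 called 0 in each. In untreated libraries 35 of 40 genes were nominally lower in knockout, with a median log2 difference of -0.15, against 0.0025 over all genes. The members vary together between libraries, so these are not 35 separate observations. An unadjusted edgeR p under 0.05 was found for 2 of the 40, against 2577 of all 14684 genes. These were Isg15 (-0.56 ± 0.21, unadjusted p = 0.0149) and Ifi211 (-0.38 ± 0.17, unadjusted p = 0.0355). After TGF-β1 and after BMP4 the medians were -0.06 and -0.12. There 0 of the 40 had an unadjusted edgeR p under 0.05, against 1837 and 1161 of all genes. The counts depended on the filter for low counts: without it, edgeR called 14, 2 and 9 of the 40 lower in knockout in untreated, TGF-β1 and BMP4 libraries, where 1.79%, 0.847% and 0.522% of the 29506 genes in that fit were called lower.

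A score was computed for each library as the mean over the 40 genes of the log2 CPM, centred on the 18 libraries. It was 0.27, 0.46 and -0.02 in the untreated floxed libraries, -0.36, -0.18 and -0.30 after TGF-β1, and 0.37, 0.35 and 0.09 after BMP4. In knockout it was 0.12, 0.06 and 0.01 untreated, -0.15, -0.58 and -0.40 after TGF-β1, and 0.42, -0.17 and -0.01 after BMP4. The TGF-β1 libraries were below every untreated library of their genotype. Group means ± SD (n = 3) were 0.24 ± 0.25, -0.28 ± 0.09 and 0.27 ± 0.16 for untreated, TGF-β1 and BMP4 in floxed and 0.06 ± 0.05, -0.38 ± 0.21 and 0.08 ± 0.30 in knockout. The difference between TGF-β1 and untreated was -0.51 in floxed and -0.44 in knockout, larger than the SD of either group in each genotype. Taken between libraries of the same number, it was -0.63, -0.64 and -0.27 in floxed and -0.28, -0.64 and -0.41 in knockout, while BMP4 gave 0.10, -0.12 and 0.11 and 0.30, -0.23 and -0.02. Library 3 was the lowest untreated and BMP4 library of the floxed genotype, and library 2 was the lowest TGF-β1 and BMP4 library of the knockout genotype.

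**Figure D3:**
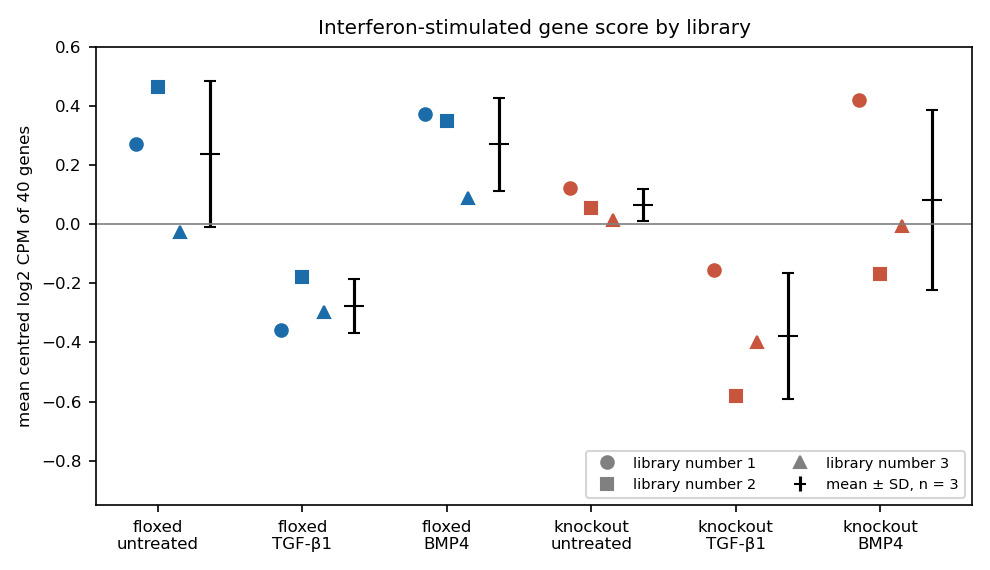
Score of the 40 genes (mean centred log2 CPM) in each library, by group, with the mean ± SD of 3 libraries beside the points and the library number as the marker shape. The TGF-β1 libraries lie between -0.58 and -0.15, and the 12 others between -0.17 and 0.46.

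The 40 genes varied together between libraries of the same group. After the group mean was taken from each value, the 780 pairs of members had a median Pearson r over the 18 libraries of 0.83, from -0.23 to 0.99, and 777 were above 0. Each gene was also set against the mean of the other 39, and 34 of 40 had an r above 0.8. Ifit3, Isg15 and Zbp1 followed the others most closely (r = 0.98), and Ifi207 (0.64), Oasl1 (0.72) and Ifi209 (0.71) less so. The median r of the 8562 genes outside the list with at least 10 CPM was -0.01 with the score, and 90 of them exceeded 0.8. Members varied more within groups than other genes did, with a median SD of 0.20 on the log2 scale against 0.09 over all genes with at least 10 CPM. All pairs share the same libraries and the same scaling, so these values describe these libraries. With total-count scaling the median r was 0.82, and over the 15 libraries without the 3 floxed ones numbered 1 it was 0.88. The score itself, centred on its groups, had an r of 0.11 with library total and -0.04 with Lyz2.

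Ifi44, an interferon-induced protein that restrains proliferation, was the exception. In the knockout libraries numbered 3 it stood at 35.1, 26.3 and 32.3 CPM (untreated, TGF-β1, BMP4), against 122 to 367 CPM in the other knockout libraries and 137 to 385 CPM in floxed. Those 3 libraries were low under every treatment, so its spread followed library number. Its within-group SD was 1.19 on the log2 scale and its r with the other members 0.30. Without it the 741 pairs of the other 39 had a median r of 0.84, from 0.30 to 0.99.

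How much a gene swung between libraries and how much it fell with TGF-β1 were related only in part. The slope of each gene on the mean of the other 39 within groups, in log2 per log2, was 1.83 for Ifit2, 1.71 for Rsad2, 1.62 for Mx1 and 1.25 for Cmpk2, all of which fell. It was also high for Isg20 (1.44), Zbp1 (1.40), Irf7 (1.24) and Usp18 (1.13), which were not called without the replicate block. With the block Irf7 was called in both genotypes (edgeR adjusted p = 0.000192 in floxed and 0.00862 in knockout). Isg20 had changes of -0.34 in floxed and -0.35 in knockout, near those of Herc6 (-0.32 and -0.33), which was called. At the other end Ifi207 (0.32), Samd9l (0.40), Parp14 (0.51), Oas2 (0.55) and Ddx58 (0.64) swung little and were called in both genotypes. Irf9 (0.37), Eif2ak2 (0.39) and Dtx3l (0.48) swung as little and were not called. Over the 40 genes the r of slope and mean log2 change with TGF-β1 was -0.42, and without Ifi44 it was -0.50 over 39. The change is negative for a fall, so genes with steeper slopes tended to fall further. By the calls of the fit without a replicate block, slopes were also compared between sets of genes. The median slope was 0.95 in the 19 genes called in both genotypes, 1.16 in the 5 called in floxed alone and 0.74 in the 16 called in neither.

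**Figure D4:**
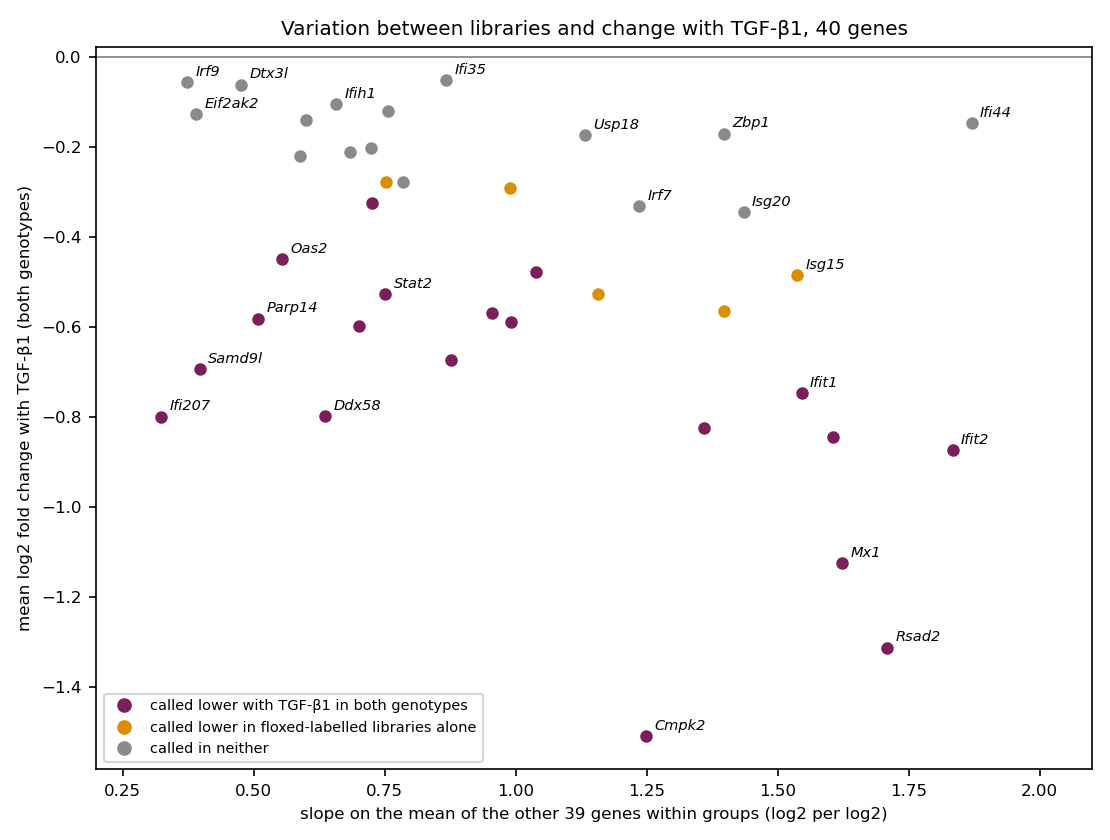
Each point is 1 of the 40 genes, with its slope on the mean of the other 39 within groups (x axis, log2 per log2) and the mean of its TGF-β1 log2 fold changes in both genotypes (y axis). Colours show where it was called lower in the fit without a replicate block. Ifi207 and Samd9l fell with slopes of 0.32 and 0.40, and Zbp1 and Isg20 had slopes of 1.40 and 1.44 without a call.

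Of the 10 genes outside the list whose group-centred values followed the score most closely over the 18 libraries, 9 were Sp100 (r = 0.96), Ifi203 (0.95), Epsti1, Fcgr1, Gm5431, Slfn8, Mndal, 1600014C10Rik and Helz2 (0.93). They did not all respond to TGF-β1 as the members did. Sp100, Ifi203, Epsti1, Gm5431, Mndal and Helz2 fell in both genotypes, by 0.43, 0.92, 0.78, 0.57, 0.70 and 0.43 in floxed. Fcgr1, the high-affinity IgG receptor, and Slfn8 had values of 0.01 and 0.01 in floxed and of 0.09 and 0.03 in knockout, none called. 1600014C10Rik rose by 1.24 in floxed and 1.23 in knockout.

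Other genes of the interferon pathway were taken as lists. Interferon genes themselves were at or near the detection limit, and of 14 listed 0 passed the filter on low counts. Ifnb1 had 8 reads in all, in 4 libraries and at most 3 in any, Ifng had 4 reads and Ifnk 33, and the others were listed at 0. At this depth a level below the 3 reads given above could not have been detected. Whether reads shared by similar genes were counted was not checked, so a value of 0 need not mean absence of RNA. Of 8 receptors and Jak-Stat genes, 3 rose and 2 fell in floxed, and 2 rose and 2 fell in knockout. For this and the next lists the share of all genes called is again 17% higher and 16% lower in floxed, and 17.6% higher and 17.1% lower in knockout. Ifnar1 and Ifnar2, the type I receptor, were not called, with values of 0.11 and 0.04 in floxed and 0.04 and 0.03 in knockout. Jak2, a kinase of the interferon-γ receptor, stood at 59.6, 70.2 and 58.1 CPM untreated and at 130.5, 152 and 128 CPM after TGF-β1 in floxed, a log2 change of 1.13 ± 0.09 (edgeR adjusted p = 4.53e-09), and rose by 1.08 in knockout. Ifngr1, the ligand-binding chain of that receptor, fell by 0.88 and 0.91, and Ifngr2, its other chain, rose by 0.35 and 0.39. Tyk2, a kinase of the type I receptor, fell by 0.35 and 0.37, and Stat3 rose in floxed by 0.22.

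Of 6 interferon regulatory factors outside the list, Irf1, Irf2 and Irf4 fell in both genotypes and Irf8 rose in both. Irf4 went from 7.19, 8.07 and 5.64 CPM to 1.56, 1.87 and 2.51 CPM in floxed and from 7.74, 8.85 and 5.15 CPM to 1.60, 1.36 and 1.49 CPM in knockout, log2 changes of -1.80 ± 0.22 and -2.29 ± 0.24 (edgeR adjusted p = 2.33e-06 and 3.32e-07). Irf1 fell by 0.58 and 0.46 and Irf2 by 0.40 and 0.43. Irf8, a lineage factor of macrophages, rose by 0.57 and 0.61. Irf3 rose in knockout by 0.26 and had a value of 0.01 in floxed. Of 7 genes that restrain interferon signalling, 2 rose and 3 fell in floxed, and 2 rose and 2 fell in knockout. Socs1, which blocks Jak kinases, fell by 1.48 and 1.40 at low levels (1.23 ± 0.464 to 0.426 ± 0.134 CPM in floxed, n = 3), and Ptpn6, a phosphatase, fell by 0.52 and 0.48; Pias1 fell by 0.15 in floxed. Socs3 rose by 0.53 and 0.59 and Ptpn1 by 0.18 and 0.18. Without the 3 floxed libraries numbered 1, 0 of these 7 rose in floxed.

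Of 16 nucleic acid sensors and adaptors that could be tested among 17 listed, 2 rose and 7 fell in each genotype. The gene that could not be tested, Trex1, was listed at 0 in every library. Ikbke, a kinase that activates Irf3 and Irf7, stood at 261, 362 and 294 CPM untreated and at 110.3, 122 and 122 CPM after TGF-β1 in floxed, and fell by 1.37 and 1.27. Samhd1, which depletes nucleotides, fell by 0.83 and 0.79, Trim25, a ligase that activates RIG-I, by 0.39 and 0.45, Mndal by 0.70 and 0.65 and Myd88, an adaptor of Toll-like receptors, by 0.34 and 0.22. Tmem173, which encodes the adaptor STING, rose by 0.59 and 0.66, and Aim2 rose by 0.25 and 0.43; without the 3 floxed libraries numbered 1, 1 of the 16 rose in floxed. Of 22 genes known above all as targets of interferon-γ, 10 fell in floxed and 9 in knockout, and none rose. Gbp7, a guanylate-binding protein, went from 30.2, 38.8 and 28.8 CPM to 5.96, 6.11 and 4.82 CPM in floxed and from 28.5, 29.1 and 30.2 CPM to 5.81, 3.54 and 4.00 CPM in knockout, log2 changes of -2.54 ± 0.18 and -2.74 ± 0.19 (edgeR adjusted p = 8.46e-10 and 8.86e-10). Gbp5 fell by 2.17 and 1.97, Gbp9 by 1.48 and 1.47, the GTPase gene Irgm2 by 0.95 and 0.73 and Ciita, the master regulator of MHC class II genes, by 1.53 and 1.72. Psmb8 and H2-K1, of antigen processing and presentation, were not called, with values of 0.03 and -0.005 in floxed and of -0.004 and 0.02 in knockout. In the comparison of BMP4 with untreated libraries 0 genes of these lists passed in either genotype.

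**Figure D5:**
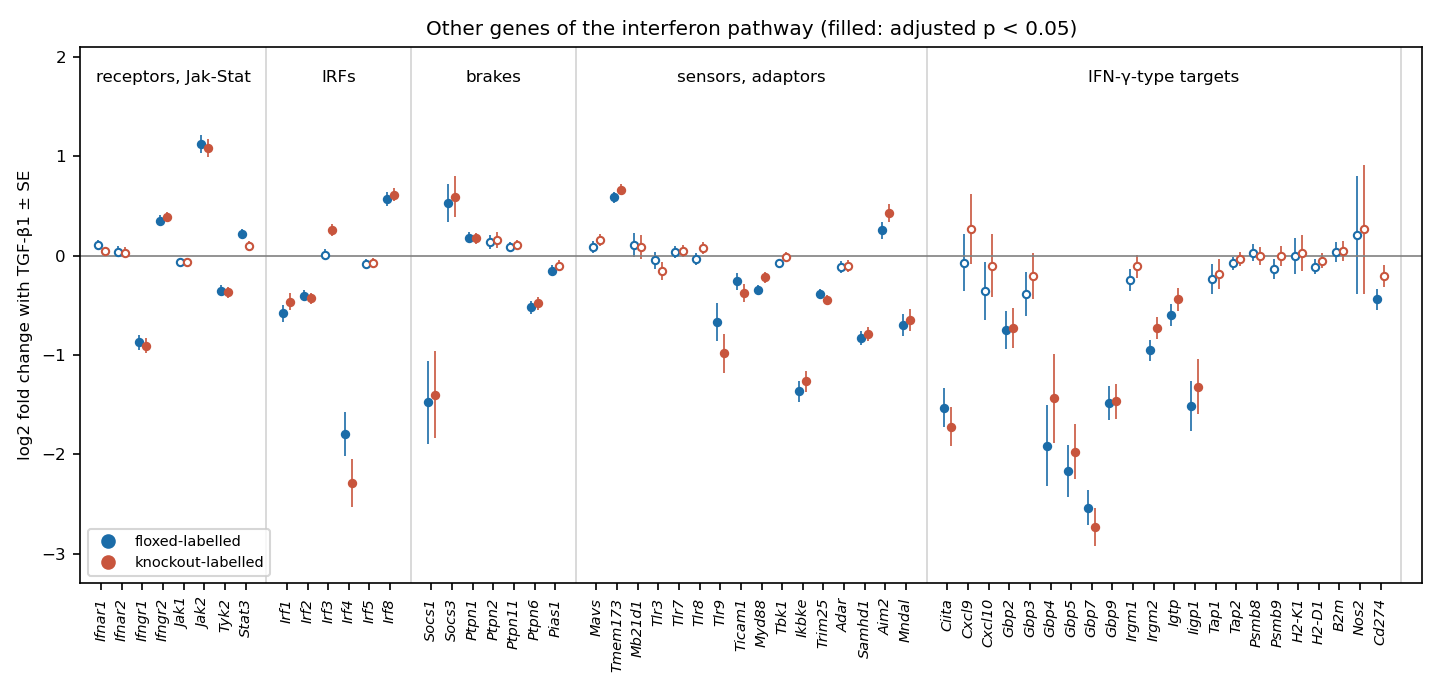
Log2 fold change ± SE with TGF-β1 for the tested genes of 5 pathway lists, in floxed (blue) and knockout (red), 3 libraries per group; filled points passed edgeR's adjusted p of 0.05. Gbp7 is lowest at -2.54 and -2.74, Jak2 highest at 1.13 and 1.08, and Ifnar1 and Ifnar2 lie near 0.

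Plasmacytoid dendritic cells are a known source of type I interferon, and their markers were near 0 but for 1. The 8 markers summed to between 159 and 240 CPM, of which Tcf4 made up 156 to 237 CPM; Siglech reached at most 1.52 CPM and Klk1 was listed at 0 in all 18 libraries. Tcf4 rose with TGF-β1 by 0.39 in each genotype (edgeR adjusted p = 3.88e-06 and 3.74e-06 in floxed and knockout). Spib, a transcription factor of these cells at 0.160 to 1.46 CPM, fell by 1.22 in floxed and by 1.61 in knockout (edgeR adjusted p = 0.0425 and 0.0269). No other marker of the 8 was called, and the marker sum was 216 to 223 CPM after TGF-β1 against 159 to 177 CPM untreated in floxed. Neutrophil markers summed to between 84.0 and 221 CPM and overlapped between the groups. The part of these cells in the members' change was not tested.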

How the data were processed

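The authors deposited a table of read counts per gene for all 18 libraries, with FPKM values (counts scaled for gene length and library depth) beside them. TopHat2 2.0.9, Cufflinks 2.1.1 and HTSeq 0.6.1 and the mm10 build are named in the submitters' processing notes; whether counting used strand is not given in the sources used here. The deposited FPKM values were used for levels between genes and for one alternative, and 78 other per-sample columns were left out.

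Counts were tested in R 4.3.3 with edgeR 4.0.16: filterByExpr over the 6 groups, TMM scaling, and 1 quasi-likelihood fit of all 18 libraries (12 residual degrees of freedom, biological coefficient of variation 8.86%). A call is a Benjamini-Hochberg adjusted p under 0.05 over all 14684 genes. CPM values use TMM-scaled totals, the score a prior count of 2. Floors cover counting error only. The ± SE of a fold change comes from the quasi-likelihood fit and includes the spread between libraries. The ± SD of a group is the spread between its libraries. Correlations are descriptions, given without p-values. Labels gave the groups and library numbers. Members and lists were chosen with earlier results of these data known. Values per library are given for the 8 called members with the smallest adjusted p in each TGF-β1 comparison and for others added after their values were seen. From each pathway list up to 4 called genes per direction are named by adjusted p, with Ifnar1, Ifnar2, Irf1, Irf3, Irf8 and Ifnb1 always; Psmb8 and H2-K1 were added later. One gene that these rules would name is not reported here.

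Library numbers recur in every group. Same-numbered libraries of one genotype deviated together over genes of at least 10 CPM (r from 0.41 to 0.66 in floxed and from 0.33 to 0.73 in knockout, 9 of 9 pairs above 0.1 in each), while between genotypes r ran from -0.34 to 0.08. The number was therefore also fitted as a pairing within genotype, as an alternative, and this replicate block gave 29 members lower in each. Counts, standard errors, adjusted p-values and figures come from the fit without the block unless the block or another alternative is named. That fit ignores the pairing, so its classes of genes called in floxed alone or in neither genotype depend on this choice. DESeq2 1.42.0, limma 3.58.1 on log2 FPKM, other scalings, filters and left-out libraries were the alternatives. The edgeR fit was tested on simulated counts.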

Additional observations from a re-analysis of the deposited data

How the results depend on the processing

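With TGF-β1, the number of members called lower was 22 to 31 in floxed and 18 to 29 in knockout over the alternatives that kept all libraries, and 0 were called higher. The replicate block within genotype moved the knockout count to 29. It was not fitted for the differences between genotypes, which share no numbered pairs, and it changed no BMP4 or interaction count of members. Without the 3 floxed libraries numbered 1 the floxed count was 13, 0 brakes on signalling and 1 sensor rose there, and Irf3 in floxed was -0.0087. Leaving out 1 library at a time gave 17 to 29 in floxed and 11 to 21 in knockout. Without the filter on low counts 29506 genes were tested, and 1 member was higher after BMP4 in knockout, 14, 2 and 9 were lower in untreated, TGF-β1 and BMP4 knockout libraries, and 1 passed the BMP4 interaction; the cause was not tested. Ifi35 and Ifi44 in knockout turned to 0.011 and 0.0011 there, and Irf3 in floxed to -0.020 with total-count scaling.

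Left-out libraries turned the sign of values that were not called. In floxed the log2 range was -0.52 to 0.019 for Ifi44, -0.21 to 0.028 for Bst2, -0.15 to 0.062 for Dtx3l and -0.034 to 0.031 for Irf3. In knockout it was -0.055 to 0.017 for Irf9, -0.094 to 0.12 for Ifi35, -0.85 to 0.48 for Ifi44, -0.11 to 0.016 for Ifih1 and -0.32 to 0.034 for Zbp1. As mean z scores the TGF-β1 score differences were -1.42 and -1.22, and the motif count with 1 mismatch was 28. Total-count scaling moved the median of all genes to -0.026 and -0.025 and left all 40 members below 0.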
